A study of Mus musculus with 3 samples.

Results

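Cycling cells were the barcodes of single-cell RNA-Seq of the mouse diaphragm that held at least 3 UMIs (unique molecular identifiers, each counting 1 captured transcript) summed over *Mki67*, *Top2a*, *Cdk1* and *Birc5*, and 195 of 12275 barcodes met this rule. Mononuclear cells came from the costal diaphragm after collagenase digestion, and dead cells were excluded by flow cytometry. Each of the 3 groups was 1 library, made from 2 pooled male mice on a diet begun at 2 months of age and kept for 6 months. WT CD mice (C57Bl/6J) ate a control diet and WT HFD mice (C57Bl/6J) a high-fat diet with 45% of calories from lipid. KO HFD mice (B6.129S2-Thbs1tm1Hyn/J, a whole-body knockout of *Thbs1*) ate the same high-fat diet. The comparisons address how diet and loss of thrombospondin-1, a matricellular protein, bear on the cells of the diaphragm, and here on which of its lineages divide. With 1 library per group no difference between groups could be tested, so intervals are 95% intervals for counting error alone, and the contrasts of diet and of genotype share the WT HFD library.

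A dividing cell copies its DNA in S phase, with helicases, polymerases and a supply of deoxynucleotides, and then separates the copies in mitosis, with condensed chromosomes, kinetochores and a spindle. Most cells of a resting adult muscle are outside the cell cycle. Muscle stem cells (MuSCs) are largely quiescent until activated, fibro-adipogenic progenitors (FAPs) expand after injury, and tissue macrophages and dendritic cells can be renewed by local division as well as from blood. The genes of the rule act late in the cycle. *Mki67* encodes the Ki-67 protein that coats mitotic chromosomes, *Top2a* the topoisomerase that untangles DNA copies, *Cdk1* the kinase that drives entry into mitosis, and *Birc5* survivin, a subunit of the chromosomal passenger complex.

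The upstream sequences of the 4 genes are shown because genes of this phase are known to share promoter elements. They are the 200 bases before the earlier of the RefSeq and GENCODE starts of each gene, with the sequence from RefSeq on GRCm38.p6, read 5′ to 3′ on the strand of the gene: *Mki67* at chr7:135716380-135716579 (minus strand), *Top2a* at chr11:99024190-99024389 (minus), *Cdk1* at chr10:69352939-69353138 (minus) and *Birc5* at chr11:117849037-117849236 (plus). Capitals mark CCAAT, the box bound by NF-Y, and TTTGAA and TTCGAA, forms of the cell cycle genes homology region, each searched on both strands.
Mki67: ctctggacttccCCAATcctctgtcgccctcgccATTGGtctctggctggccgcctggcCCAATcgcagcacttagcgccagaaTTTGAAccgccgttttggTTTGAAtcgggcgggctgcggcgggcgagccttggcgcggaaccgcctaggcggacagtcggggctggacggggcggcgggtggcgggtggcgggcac
Top2a: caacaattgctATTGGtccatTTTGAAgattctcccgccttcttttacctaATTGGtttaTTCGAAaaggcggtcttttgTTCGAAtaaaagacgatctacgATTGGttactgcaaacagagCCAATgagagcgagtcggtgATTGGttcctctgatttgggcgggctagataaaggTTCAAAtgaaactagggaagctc
Cdk1: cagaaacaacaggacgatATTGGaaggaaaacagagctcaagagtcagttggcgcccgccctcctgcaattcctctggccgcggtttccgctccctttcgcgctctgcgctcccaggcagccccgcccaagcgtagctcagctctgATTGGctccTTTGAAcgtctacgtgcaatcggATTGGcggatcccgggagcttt
Birc5: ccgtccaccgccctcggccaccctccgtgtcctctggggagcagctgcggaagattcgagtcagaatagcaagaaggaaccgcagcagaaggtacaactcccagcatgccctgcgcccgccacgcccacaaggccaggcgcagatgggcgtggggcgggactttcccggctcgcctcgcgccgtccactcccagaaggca
The *Mki67*, *Top2a* and *Cdk1* windows held 5, 9 and 4 matches, and no match overlapped another. CCAAT was present in these 3 windows and in 29.3% of 32851 promoters of the same length, TTTGAA in the same 3 and in 12.5% of all, and TTCGAA in the *Top2a* window and in 0.992% of all. The *Birc5* window held none of these letters. A further 106 promoters were those of the cell cycle genes listed for this work, leaving out G1 cyclins and kinases and CDK inhibitors. Of these, 64.2% held CCAAT and 27.4% held either of the other motifs, beside 13.4% of all promoters. These are matches of letters and not measured binding sites.

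The rule picked out a small set of barcodes, with no gap in marker UMIs at the threshold. Of all barcodes, 11793 had no marker UMI, 229 had 1 and 58 had 2, which left 287 barcodes with a trace below the rule. Just inside the rule, 20 barcodes had 3 UMIs and 14 had 4. Over much wider ranges, 71 had 20 to 49 and 40 had 50 or more. The median cycling cell held 24 marker UMIs (19.5 in WT CD, 21 in WT HFD and 34 in KO HFD), and the highest held 127. All 4 genes were detected in 125 of the 195 cells, 3 genes in 31, 2 genes in 21 and a single gene in 18. As a description of what the rule selected, *Mki67* stood at 448 CPM (counts per 1000000 UMIs) in cycling cells against 1.37 in all others, *Top2a* at 543 against 1.06, *Cdk1* at 212 against 0.464 and *Birc5* at 399 against 0.585. *Mki67* was the most widely detected of them, with a UMI in 186 cells.

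**Figure D1:**
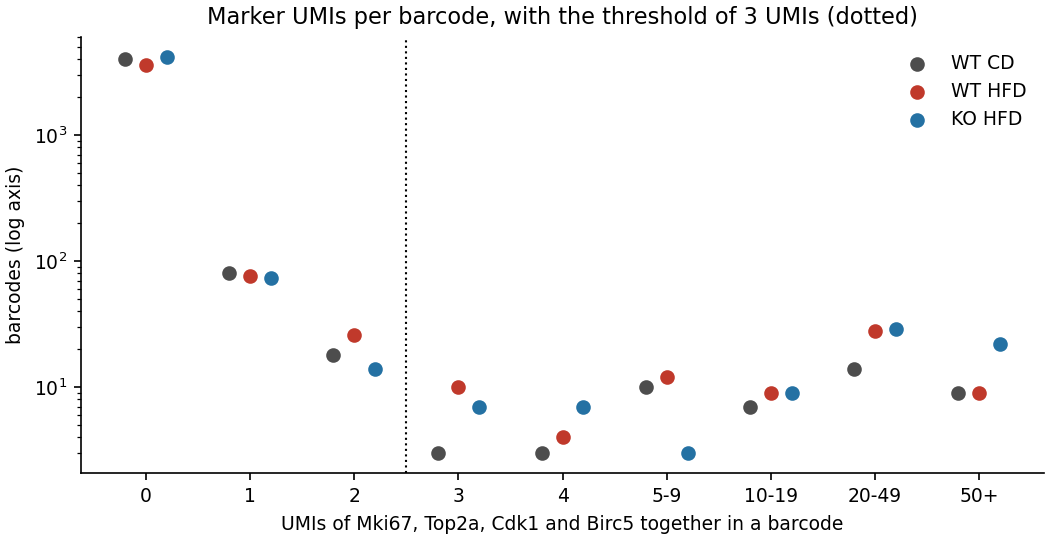
Number of barcodes (y axis, log scale) by the summed UMIs of *Mki67*, *Top2a*, *Cdk1* and *Birc5* (x axis), with a point for each library (WT CD, WT HFD and KO HFD) and a dotted line at the threshold. Over the libraries counts drop from 229 barcodes at 1 UMI to 20 at 3 UMIs, and 71 barcodes lie at 20 to 49. The ranges on the right span many values each, unlike the single values on the left.

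Barcodes near the threshold were deep and mixed in their other cell cycle transcripts. The 58 barcodes with 2 marker UMIs had a median of 13783.5 UMIs in all, and a median of 5.03 UMIs of mitotic genes (52 genes, without the markers) per 10000. The 20 barcodes with 3 marker UMIs had 14301.5 UMIs and 6.51 mitotic UMIs per 10000, and the 14 with 4 had 15062 and 8.07. Barcodes without a marker UMI had 7621 UMIs and 4.19 mitotic UMIs per 10000. The median over all cycling cells was 52.4. Over the 34 barcodes with 3 or 4 marker UMIs, mitotic UMIs had quartiles of 3.68 and 14.5 and reached 96.4 per 10000, and replication UMIs had quartiles of 2.47 and 15.5 and reached 92.98, so the edge held barcodes at the level of non-cycling cells beside others far above it.

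The cycling share differed little in absolute terms and was lowest in WT CD. It was 1.11% in WT CD (46 of 4132 barcodes, exact interval 0.816 to 1.48), 1.91% in WT HFD (72 of 3774, 1.5 to 2.4) and 1.76% in KO HFD (77 of 4369, 1.39 to 2.20). WT HFD exceeded WT CD by 0.795 percentage points (Newcombe interval 0.258 to 1.36), and the difference of KO HFD from WT HFD was -0.145 points, with an interval of -0.746 to 0.439. Cycling cells were deeper than the others. They had a median of 16894 UMIs against 7664 in the other cells (20184 against 7585 in WT CD, 14290.5 against 7969 in WT HFD and 17789 against 7496.5 in KO HFD), and the libraries held 34312860, 31967976 and 36478779 UMIs. For thinning, here and below, barcodes under 3000 UMIs were left out (3.08% of cycling and 9.65% of other barcodes) and the rest were thinned to 3000 UMIs. The shares became 0.814%, 1.16% and 1.31%. The difference between WT HFD and WT CD shrank to 0.347 points (-0.116 to 0.829), and that between KO HFD and WT HFD turned to 0.147 points (-0.372 to 0.654). These shifts mix thinning with the depth filter. Doublets were called in 3 of the 195 cells (1.54%, against 1.23% of the other barcodes), and none of the barcodes shared between libraries (7, 7 and 2) belonged to a cycling cell.

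Several lists of genes outside the rule marked the same barcodes as cycling, but not all did. At least 3 UMIs of the 19 spindle and cytokinesis genes were found in 85.6% of cycling cells (167 of 195) and in 0.728% of the other 12080. After thinning to 3000 UMIs, without barcodes under that depth, these shares were 59.3% and 0.0641%. Without thinning, the shares for the 14 kinetochore and centromere genes were 88.7% and 2.91%, and for the 6 genes of nucleotide supply 72.3% and 3.65%. The 14 mitotic cyclins and kinases gave 85.6% and 5.05%. The 27 replication genes, which resting cells also express, reached 3 UMIs in 92.3% and 40.3%. The 5 anaphase genes set the cells apart as little, at 92.3% and 42.5%.

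Each barcode was then given the lineage whose gene had the most UMIs: *Pdgfra* for FAPs, *Pax7* for MuSCs, *Pecam1* for endothelial cells, *C1qa* for macrophages and *Cd79a* for B cells. Averaged over the libraries with equal weight, 4.70% of macrophages, 3.35% of MuSCs, 2.06% of B cells, 1.03% of endothelial cells and 0.318% of FAPs were cycling. By these genes FAPs were lowest in each library, but the order of the others differed. In WT CD the share was 3.43% in B cells, 3.16% in macrophages, 0.831% in endothelial cells and 0.787% in MuSCs, with overlapping intervals. None of the 81 barcodes with tied lineage genes was cycling. The remaining 72 cycling cells held no UMI of any lineage gene.

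FAPs were the most numerous lineage in the tissue and contributed few dividing cells. In WT CD 3 of 2010 FAPs were cycling (0.149%, 0.0308 to 0.436), in WT HFD 9 of 1832 (0.491%, 0.225 to 0.931) and in KO HFD 7 of 2229 (0.314%, 0.126 to 0.646). All 3 intervals overlapped. The difference between WT HFD and WT CD was 0.342 points, with an interval of -0.0287 to 0.793.

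Dividing MuSCs came almost entirely from the high-fat diet libraries. The counts were 2 of 254 in WT CD (0.787%, 0.0955 to 2.82), 12 of 223 in WT HFD (5.38%, 2.81 to 9.21) and 14 of 361 in KO HFD (3.88%, 2.14 to 6.42). WT HFD exceeded WT CD by 4.59 points (1.54 to 8.42), the sole lineage difference between these libraries whose counting interval lay above 0. The difference of KO HFD from WT HFD was -1.503 points, with an interval of -5.60 to 1.90. Leaving out MuSCs under 3000 UMIs kept 219 of 254, 219 of 223 and 357 of 361. Thinned to 3000 UMIs, the cycling counts among these were 1, 10 and 10, a difference of 4.11 points between the WT libraries (1.17 to 7.76).

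Macrophages were the largest group of the cycling cells with a lineage. They counted 6 of 190 in WT CD (3.16%, 1.17 to 6.75), 22 of 375 in WT HFD (5.87%, 3.71 to 8.75) and 18 of 354 in KO HFD (5.08%, 3.04 to 7.92). Dividing B cells ran the other way, with 15 of 437 in WT CD (3.43%, 1.93 to 5.60), 3 of 166 in WT HFD (1.81%, 0.374 to 5.19) and 1 of 108 in KO HFD (0.926%, 0.0234 to 5.05). For both lineages the intervals of the differences included 0, at -1.35 to 6.03 points for macrophages and -4.09 to 2.003 for B cells between WT HFD and WT CD. Endothelial cells counted 3 of 361, 3 of 406 and 5 of 328.

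**Figure D2:**
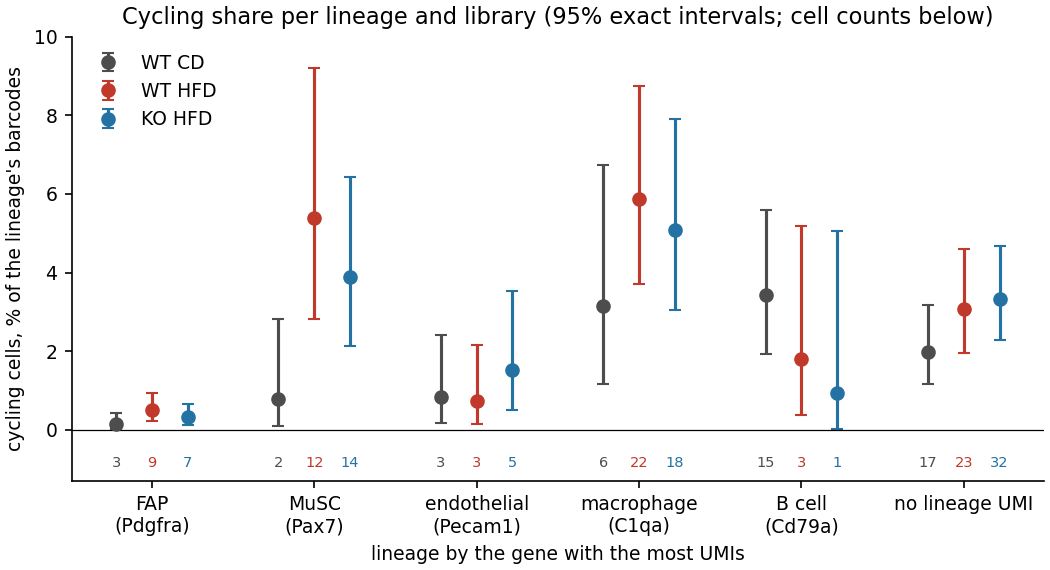
Cycling share (percent of the barcodes of a lineage, y axis) for each lineage in WT CD, WT HFD and KO HFD, where points are shares, the numbers under them the cycling cells, and bars exact 95% intervals for counting error in 1 library. MuSCs stand at 0.787% in WT CD against 5.38% and 3.88% in the high-fat diet libraries, and FAPs stay under 0.5% in each.

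A single gene names a lineage poorly in some cells, so each barcode was also classed by panels of 5 marker genes, with at least 2 detected. The panel agreed for 46 of 46 cycling macrophages, 27 of 28 MuSCs and 18 of 19 FAPs. It agreed for 15 of 19 B cells, since 3 of the others were plasma cells and 1 a macrophage. It went against the endothelial label. Of the 11 cycling barcodes led by *Pecam1*, an adhesion molecule also made by leukocytes, 3 were endothelial by panel, 3 were macrophages, 2 T cells, 1 a monocyte, 1 a dendritic cell and 1 unassigned. *Cdh5* and *Egfl7*, which mark endothelium, were each detected in 3 of the 11, against 83.2% and 88.8% of the other barcodes led by *Pecam1*. These 11 barcodes are therefore called *Pecam1*-led and not endothelial below. By panel 3 of 879 endothelial cells were cycling (0.341%), beside 19 of 6745 FAPs (0.282%). In KO HFD 0 of 259 endothelial cells were (exact interval up to 1.41%), beside 0.284% of FAPs, so FAPs were not lowest there by panel.

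The panels placed most of the cells that lacked a lineage UMI among myeloid cells. Of these 72 cells, 22 were dendritic, 15 macrophages, 7 monocytes, 5 MuSCs, 5 T cells, 3 NK or ILC, 1 FAP and 1 mesothelial, and 13 stayed unassigned. By panel the cycling cells thus comprised 65 macrophages, 32 MuSCs, 24 dendritic cells, 19 FAPs, 15 B cells, 9 monocytes, 7 T cells, 3 plasma cells, 3 NK or ILC, 3 endothelial cells and 1 mesothelial cell, with 14 unassigned. Among the 65 macrophages by panel, *Csf1r*, the receptor for their growth factor, was detected in 61, *C1qb* in 58 and *C1qa* in 46. By panel the share of FAPs was 0.407 points higher in WT HFD than in WT CD (10 of 2020 against 2 of 2262, interval 0.0818 to 0.825), and that of macrophages 0.506 points higher in KO HFD than in WT HFD (-2.86 to 3.86), where the *C1qa* rule had given -0.782. No neutrophil, mast, mural, Schwann, tenocyte, lymphatic or erythroid barcode was cycling.

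**Figure D3:**
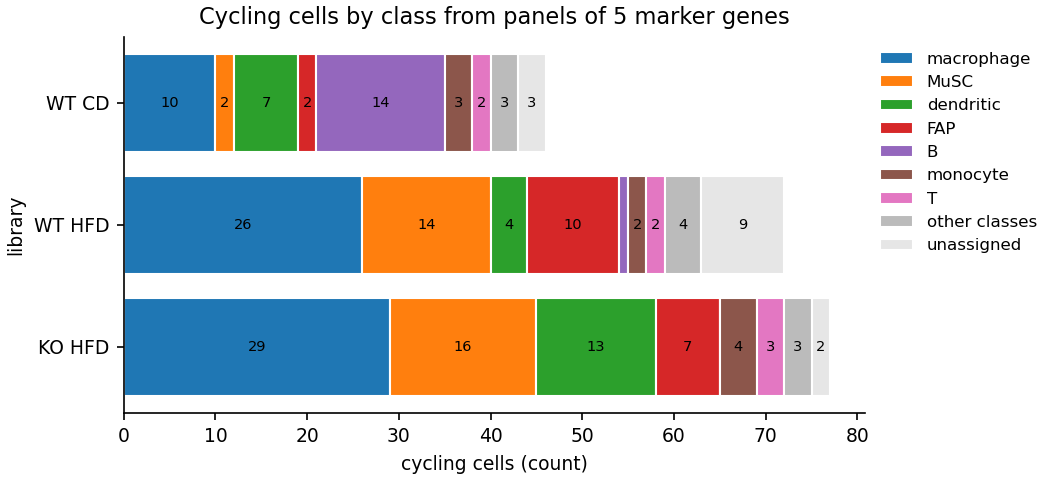
Number of cycling cells (x axis) in WT CD, WT HFD and KO HFD (y axis), with each bar split by colour into the classes from panels of 5 marker genes. Macrophages (65), MuSCs (32) and dendritic cells (24) lead, and B cells come almost wholly from WT CD (14 of 15).

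Dendritic cells had the highest cycling share of the classes with at least 20 barcodes in each library. It was 31.8% in WT CD (7 of 22, 13.9 to 54.9), 19.05% in WT HFD (4 of 21, 5.45 to 41.9) and 37.1% in KO HFD (13 of 35, 21.5 to 55.1), and 30.8% over all libraries (24 of 78, 20.8 to 42.2). Among macrophages by panel it was 6.05% (65 of 1075). Cycling dendritic cells were deeper than the others of their class, with a median of 16775.5 UMIs against 11412.5. With marker UMIs thinned to 3000 per barcode and shallower barcodes left out, 13 of 77 dendritic cells (16.9%, 9.31 to 27.1) and 37 of 1030 macrophages (3.59%, 2.54 to 4.92) remained cycling. The B cell panel gave 14 of 340 in WT CD (4.12%), 1 of 152 in WT HFD (0.658%) and 0 of 88 in KO HFD, where a count of 0 allows a share of up to 3.41% by 3 counts and 4.11% by the exact interval. WT HFD was 3.46 points below WT CD for this panel, with an interval of -6.19 to -0.0589.

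The dendritic panel itself holds *Xcr1*, *Clec9a* and *Cd209a*, so how many cells carried them is in part set by the class rule. *Xcr1*, a chemokine receptor of conventional type-1 dendritic cells, was detected in 16 of the 24 and *Clec9a*, their receptor for dead-cell actin, in 18. *Cd209a*, a lectin of other dendritic cells, was detected in 4. Its level was 239, 235 (16 UMIs of 1 cell) and 0 CPM in cycling dendritic cells of WT CD, WT HFD and KO HFD against 696, 364 and 840 in the other dendritic cells of the same libraries. *Xcr1* stood at 68.4, 132 and 118 CPM against 97.8, 89.7 and 115.

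To describe what else set cycling cells apart, the cycling cells of each library were compared with its other cells in the same mixture of panel classes. Of 2371 genes with at least 50 CPM in the cycling or other cells of every library, 192 (8.1%) were at least 2-fold higher in all 3 libraries and 23 (0.97%) at least 2-fold lower. With TMM scaling 36 genes were lower, and a minimum of 10 UMIs in place of the CPM filter gave 472 higher and 85 lower. Both the comparison and the call are a rule of size without a test. The lists of cell cycle genes below are given without the level filter, so that each member is counted. Of the 22152 genes with any UMI, 2.6% were at least 2-fold higher in all libraries and 1.21% at least 2-fold lower.

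DNA replication genes were higher throughout. All 27 genes of licensing and the replication fork were at least 2-fold higher in each library, with summed levels of 2474, 2153 and 1816 CPM in WT CD, WT HFD and KO HFD against 368, 340 and 304 expected from non-cycling cells of the same classes. *Pcna*, the sliding clamp of the polymerases, stood at 431, 358 and 341 CPM against 95.02, 84.3 and 93.7. *Clspn*, which encodes claspin of the replication checkpoint, had the largest ratio, at 67.3 against 1.38 CPM over all libraries. All 6 genes of nucleotide supply were likewise higher, with the highest level in *Dut*, the enzyme that keeps uracil out of DNA, at 243 against 26.0 CPM. *Rrm2*, the regulated subunit of ribonucleotide reductase, had the largest ratio at 120 against 1.03 CPM.

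Mitotic genes were higher as well. All 14 mitotic cyclins and kinases were higher, with summed levels of 1065, 1187 and 1399 CPM against 72.3, 83.1 and 87.4, as were all 14 kinetochore genes (1367, 1800 and 1742 against 62.4, 65.7 and 57.8) and all 19 spindle genes (1476, 1932 and 2120 against 30.4, 31.8 and 32.4). *Ccna2*, cyclin A, stood at 124 CPM against 0.223. *Cenpf*, a kinetochore protein, was at 250 against 1.17, and *Hmmr*, a spindle protein, at 130 against 0.196. In the anaphase list 4 of 5 genes were higher, led by *Ube2c*, the ubiquitin-conjugating enzyme of the anaphase-promoting complex, at 509 against 3.08 CPM. The exception was *Pttg1*, securin, at 28.8, 31.3 and 33.1 CPM against 28.3, 40.4 and 36.8.

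Chromatin genes were the most abundant. All 17 genes of condensin, chromatin and tubulin present in the files were higher, and *H2afz*, a histone variant, alone stood at 2937, 3095 and 3270 CPM against 784, 711 and 1068. Outside the lists, the largest ratios were those of replication-dependent histones and of *Pclaf*, a *Pcna*-binding protein, at 560, 312 and 317 CPM against 2.11, 0.613 and 0.206. *Hist1h1b*, a linker histone, was at 685, 673 and 489 CPM against 1.48, 1.92 and 0.757. *Hist1h2ap*, *Hist1h2ab*, *Hist1h2ae* and *Hist1h3c* were also among the 10 largest, and since these histone genes have near-identical copies the share of each is uncertain. *Esco2*, which acetylates cohesin, *Pbk*, a mitotic kinase, *Cdca3* and *Cdkn3* completed the 10.

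Among regulators of entry into the cycle fewer members passed 2-fold. Of 14 genes of cell cycle transcription 9 were at least 2-fold higher in all libraries, led by *Foxm1*, the activator of mitotic genes, at 30.3 against 0.414 CPM, while *Trp53* was at 78.4 against 49.2. Among G1 cyclins and kinases, 1 of 6 was at least 2-fold higher, *Cdk2* at 33.1, 21.5 and 24.0 CPM against 8.64, 8.73 and 8.30. *Cdk4* was at 189, 139 and 153 CPM against 49.2, 74.7 and 59.2, under 2-fold in WT HFD. Of 7 CDK inhibitors, 3 (*Cdkn2a*, *Cdkn2c* and *Cdkn2d*) were at least 2-fold higher in all libraries and *Cdkn1c*, p57, at least 2-fold lower, at 4.27, 36.7 and 14.3 CPM against 26.9, 351 and 101. *Cdkn1a*, p21, stood at 204, 396 and 521 CPM against 238, 364 and 412, which crossed. Most of these regulators lay under the level filter. Of the members that passed it, 0 of 1 in cell cycle transcription, 0 of 4 G1 genes and 1 of 3 CDK inhibitors were at least 2-fold higher, beside 8.1% of all genes.

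**Figure D4:**
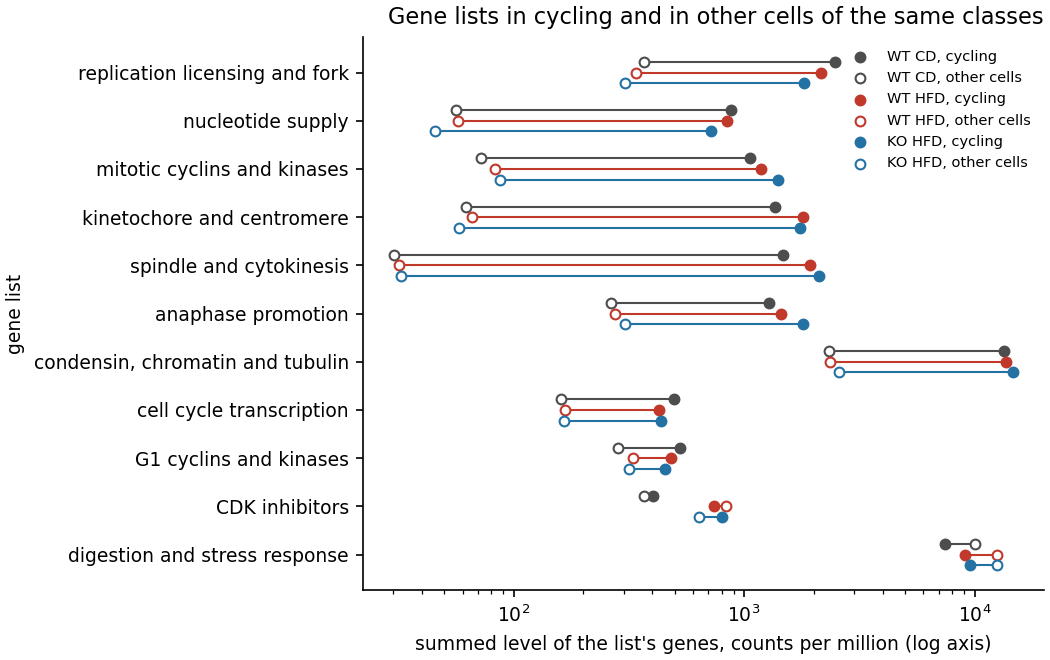
Summed CPM (x axis, log scale) of each gene list (y axis) in the cycling cells of WT CD, WT HFD and KO HFD (filled points) and the level expected from other cells of the same panel classes (open points). Spindle genes stand at 1476, 1932 and 2120 CPM against 30.4, 31.8 and 32.4, whereas CDK inhibitors lie close to the expected level.

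Among the 10 lowest genes of those at least 2-fold lower, *Dcn*, decorin, stood at 402, 1101 and 656 CPM in cycling cells against 1274, 2735 and 1909, and *Apoe*, apolipoprotein E, at 630, 583 and 527 against 1737, 2873 and 2762. *Gpx3*, a secreted glutathione peroxidase, was at 44.9, 77.8 and 81.7 CPM against 176, 360 and 332. *Mucl1*, *Mfap4*, *Ogn*, *Lst1*, *Smoc2* and *Cilp* were also among the 10, of which *Mucl1* had 2 UMIs in all cycling cells. Genes of the response to digestion and stress were modestly lower, 9 of 10 in all libraries but none by 2-fold, beside 24.0% of the 2371 genes lower in all libraries, with summed levels of 7426, 9085 and 9562 CPM against 10083, 12488 and 12542. Their part in the other differences was not tested.

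Cycling cells differed among themselves in the balance of replication and mitosis. The balance was taken as the share of mitotic UMIs (52 genes) in the sum of mitotic and replication UMIs (33 genes), neither list including the 4 markers. Its median over all cycling cells was 72.3% (quartiles 42.9 and 85.5), and 132 of 195 cells held more mitotic than replication UMIs. The medians of barcodes without a marker UMI leaned the same way, at 4.19 mitotic and 3.28 replication UMIs per 10000. Among 11485 non-cycling barcodes with a UMI of either list the median balance was 55.6%, and 6126 (53.3%) held more mitotic UMIs. The rule uses late genes and the mitotic list is the longer, so part of the lean is built in. By library the median balance of cycling cells was 61.9% in WT CD, 72.5% in WT HFD and 74.7% in KO HFD. Of these cells, 27 of 46, 52 of 72 and 53 of 77 were on the mitotic side. Replication UMIs ran from 29.8 per 10000 in WT CD to 23.6 in WT HFD and 17.4 in KO HFD, and mitotic UMIs from 35.3 to 47.96 and 61.7, as medians over cells. The quartiles of the balance overlapped between libraries (35.5 to 84.7, 41.1 to 85.6 and 47.4 to 88.6).

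By lineage the median balance was 77.2% in MuSCs, 71.0% in macrophages, 69.4% in FAPs and 60.6% in B cells, and 72.8% in dendritic cells by panel. MuSCs carried the most mitotic transcripts, at a median of 101 UMIs per 10000 against 56.1 in FAPs, 47.9 in macrophages and 38.3 in B cells. The 15 B cells of WT CD had a median balance of 56.3%, the 5 *Pecam1*-led cells of KO HFD 46.2% and the 17 cells of WT CD without a lineage UMI 47.5%. The lineages differ in their number of cycling cells per library, so the library medians mix lineages.

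**Figure D5:**
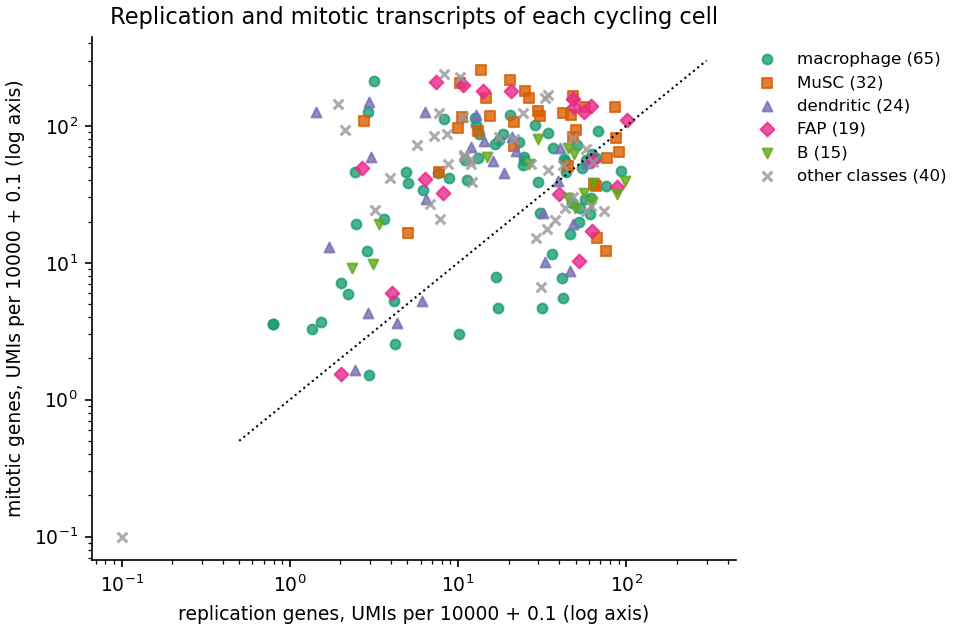
Replication UMIs (x axis) and mitotic UMIs (y axis) per 10000 UMIs, both plus 0.1 on log axes, with a point for each of the 195 cycling cells of the 3 libraries, shaped and coloured by panel class, and a dotted line of equal values. Of these cells 132 lie above the line, on the mitotic side, and 1 barcode with no UMI of either list lies at the lower left.

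Within lineages, cycling and other cells were compared over the libraries together, with the other cells weighted to the libraries of the cycling cells. These comparisons were added after the data had been seen, since the planned comparison required 20 cycling cells of a lineage in a library and macrophages of WT HFD alone reached that. A list is read beside the share of all genes called.

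In macrophages of WT HFD (22 cycling, 353 other), 206 of 2738 genes (7.52%) were at least 2-fold higher and 73 (2.67%) at least 2-fold lower. With TMM scaling the counts were 154 and 113, and with a minimum of 10 UMIs in place of the CPM filter 629 and 1323, which turned the balance to mostly lower. *Hist1h1b* led the higher genes at 231 against 0.864 CPM, and *Pclaf* stood at 152 CPM against 0 UMIs. The lower genes were led by those of other cell types, such as *Mucl1* (0 against 183 CPM), *Dcn* (11.7 against 398), *Col1a2* and *Igkc*. Of the 6 resident macrophage genes 2 were at least 2-fold lower here.

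Over all libraries, 693 of 7463 genes (9.29%) were at least 2-fold higher in the 46 cycling macrophages and 336 (4.5%) at least 2-fold lower, or 593 and 443 with TMM scaling. *C1qa* itself stood at 2344, 2148 and 1873 CPM in WT CD, WT HFD and KO HFD against 3591, 4058 and 3187 in the other macrophages. Each of these cells was chosen by its *C1qa* UMIs, so nothing is read from this level. Of 6 genes of resident macrophages, 3 were at least 2-fold lower, beside 4.5% of all genes. *Lyve1*, a hyaluronan receptor of perivascular macrophages, had 0, 28 and 16 UMIs in cycling cells and stood at 50.4 against 197 CPM. *Folr2*, a folate receptor, was at 135, 146 and 94.9 CPM against 220, 338 and 305, and *Cd209f* was found in 3 cells, all of WT HFD. Without the WT HFD library 5 of the 6 were at least 2-fold lower, and without KO HFD 191 of all genes were. *Ccr2*, the receptor that recruits monocytes, stood at 324 against 339 CPM, *Trem2* at 189 against 195 and *Lpl*, lipoprotein lipase, at 554 against 520. *Plac8*, the other monocyte gene with enough UMIs, had no UMI in cycling macrophages against 34.2 CPM. Of 7 genes of lipid-associated macrophages 2 were at least 2-fold lower, *Spp1* (20.6 against 76.9 CPM) and *Gpnmb* (9.16 against 53.6). *Igkc*, an antibody light chain, was at 6.87 against 4439 CPM, and by panel 4 of the other macrophages and none of the cycling ones were plasma cells.

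In MuSCs, 888 of 5255 genes (16.9%) were at least 2-fold higher in the 28 cycling cells and 363 (6.91%) at least 2-fold lower, or 679 and 583 with TMM scaling. *Myod1*, the factor that commits stem cells to muscle, stood at 276, 393 and 548 CPM in WT CD, WT HFD and KO HFD against 201, 161 and 163. The WT CD value came from 9 UMIs in 2 cells, with an interval of 126 to 523 CPM that includes the 201 of the other cells. Of 3 genes of myogenic commitment with enough UMIs, 1 was at least 2-fold higher over the libraries together, *Myod1*, and 1 at least 2-fold lower, *Tnnt1*, a troponin, at 22.2 against 65.7 CPM from 9 UMIs, while *Des*, desmin, stood at 358 against 320 CPM. *Pax7*, which maintains the stem cell state, stood at 61.2, 181 and 175 CPM against 413, 402 and 356, but each of these cells was chosen by a *Pax7* UMI, with a median of 2 UMIs in cycling and in other MuSCs, so nothing is read from its level. Of the 5 other quiescence genes with enough UMIs, 2 were at least 2-fold lower, beside 6.91% of all genes: *Calcr* (27.2 against 57.8 CPM), the calcitonin receptor, and *Notch3* (49.4 against 102). That count was 4 with TMM scaling and 0 with a pseudocount of 5 counts. *Myog*, the factor of terminal differentiation, had 2 UMIs in all cycling MuSCs led by *Pax7*, 4.94 CPM (0.598 to 17.8) against 12.9, a difference within counting error. In all cycling cells matched by panel class, which needs no *Pax7* UMI, *Myog* had 3 UMIs. Its level there was 0, 2.68 and 0 CPM in WT CD, WT HFD and KO HFD against 1.87, 98.1 and 18.9 expected, so the 2 comparisons differ. *Cdk4* stood at 306, 251 and 313 CPM against 83.7, 116 and 104. The inhibitor *Cdkn2a* had 16 UMIs over 12 cycling cells of the high-fat diet libraries, 39.5 against 0.686 CPM, and *Cdkn2c* and *Cdkn2d* were at 188 against 48 and 173 against 14.

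In FAPs, 956 of 6146 genes (15.6%) were at least 2-fold higher in the 19 cycling cells and 616 (10%) at least 2-fold lower, or 769 and 814 with TMM scaling. The FAP1, FAP2 and FAP4 lists hold genes by which the study named subsets of FAPs on these libraries, so their counts are not independent evidence of a direction. All 6 genes of the adipogenic subset FAP1 were lower, 4 of them by 2-fold or more. *Ccl11*, eotaxin, stood at 177, 111 and 40.1 CPM in WT CD, WT HFD and KO HFD against 348, 346 and 348, and *G0s2*, an inhibitor of lipolysis, at 32.1, 41.0 and 45.8 against 150, 146 and 170. *Hsd11b1*, which regenerates glucocorticoid, was at 96.4, 17.6 and 22.9 CPM against 179, 146 and 122. Of 13 genes of the matrix-depositing subset FAP2 none was 2-fold lower or higher. *Mfap5* stood at 1156, 2641 and 2555 CPM against 1700, 2212 and 1934, and *Fbn1*, fibrillin-1, at 1124, 814 and 1604 against 755, 1176 and 945. All 3 genes of FAP4 were lower, as *Fmod* had no UMI, *Sfrp2* 1 and *Tnmd* 4 in cycling FAPs. Without KO HFD 1 gene of FAP4 and 1 of FAP2 were at least 2-fold lower, and without WT HFD 2 genes of FAP2 were at least 2-fold higher.

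Matrix and stress genes in FAPs split by gene. *Dcn* was at 3533, 6400 and 5638 CPM against 16198, 14262 and 15562, and *Lum*, lumican, at 209, 1072 and 361 against 1446, 1482 and 1550, whereas *Col3a1* stood at 3997 against 3218 and *Sparc* at 4102 against 3208 over all libraries. In all, 2 of 12 fibrillar matrix genes were at least 2-fold lower, or 1 without KO HFD. Of the 10 digestion and stress genes 6 were, beside 10% of all genes. *Egr1*, an immediate early factor, was at 755, 867 and 619 CPM against 2811, 2377 and 2986, lower in each library, while the chaperone *Hspa8* was at 2014 against 1637. *Ccnd1*, cyclin D1, was at 64.2, 123 and 80.2 CPM against 15.2, 20.6 and 10.0, and *Cdkn1c* at 0, 70.3 and 34.4 against 190, 196 and 184.

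In B cells, 15 of the 19 cycling cells came from WT CD, so values are mainly of that library. Of 4116 genes 846 (20.6%) were at least 2-fold higher and 249 (6.05%) at least 2-fold lower, or 475 and 440 with TMM scaling. Without WT CD, 341 genes were higher. *Mef2b*, a factor of germinal centre B cells, had 13 UMIs in 6 cells of WT CD, 41.9 against 3.95 CPM. *Bcl6*, a master factor of the germinal centre, had no UMI in cycling B cells. *Mzb1*, a secretory chaperone, stood at 2125, 2439 and 10909 CPM against 1224, 1124 and 438, the last from a single cell. *Jchain*, of plasma cells, was at 429 CPM against 13391 in WT CD and at 810 against 7711 in KO HFD. In WT HFD it was at 3475 against 1066 CPM, from 218 UMIs of a single cell. *Cd79a* stood at 1519 against 1970 CPM, but these cells were chosen by their *Cd79a* UMIs, so nothing is read from its level.

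In dendritic cells by panel, 695 of 4753 genes (14.6%) were at least 2-fold higher in the 24 cycling cells and 198 (4.17%) at least 2-fold lower, or 514 and 327 with TMM scaling. Without KO HFD the counts were 440 and 127. Among the 10 lowest were *Il6*, *Epcam* and the lectins *Cd209d*, *Clec10a*, *Mgl2* and, from the panel itself, *Cd209a*, with *Mgl2* at 342, 0 and 8.12 CPM against 913, 398 and 569. *Retnla*, a secreted factor, was at 1363 against 14.4 CPM, but its 588 UMIs came from 1 cell of WT CD and 1 of KO HFD. None of the 10 digestion and stress genes was 2-fold lower, or 1 without KO HFD. In the 11 *Pecam1*-led cells, 693 of 3662 genes (18.9%) were at least 2-fold higher and 804 (22%) at least 2-fold lower, or 261 and 204 without KO HFD. *Kdr*, a receptor for VEGF, stood at 74.98 against 502 CPM, and *Lyz2*, lysozyme, at 18200 CPM in KO HFD against 462, which goes with the mixed panel classes of these cells. *Pgf* had 22 UMIs in 2 cells and *Apln* 8 UMIs in 1 cell, all of WT HFD.

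Between libraries, macrophages by panel were the one class with more than 20 cycling cells in both high-fat diet libraries, and this comparison too was added after the data had been seen. With 29 cells in KO HFD and 26 in WT HFD, 42 of 1532 genes (2.74%) were at least 2-fold higher in KO HFD and 82 (5.35%) at least 2-fold lower. A minimum of 10 UMIs in place of the CPM filter gave 485 and 354, which turned the excess to the higher side. Of the first counts, 2 and 28 passed 2-fold the same way in the other macrophages of the same libraries. *C1qbp*, a mitochondrial matrix protein, was the most evenly spread of the 5 genes with the largest ratios, with 132 against 33.7 CPM and a UMI in 22 of 29 and 9 of 26 cells. *Hmox1*, heme oxygenase, was at 762 against 144 CPM, but 1 cell held 416 of its 503 UMIs in KO HFD. *Ccnd2*, cyclin D2, was at 101 against 12.02 CPM, with 42 of 67 UMIs in 1 cell. Of the 5 genes lowest in KO HFD, 3 rested on few cells. *Cd209f* had 46 UMIs in 3 cells of WT HFD and none in KO HFD, *Cxcl13*, a B cell chemokine, 127 UMIs in 3 cells against 2 UMIs, and *Txndc16* had 46 of its 53 UMIs in 1 cell. *Ptgis*, prostacyclin synthase, and *Ednrb*, an endothelin receptor, were spread more widely, detected in 8 and 12 of the 26 WT HFD cells, at 267 against 16.7 CPM and 236 against 15.1. In the other macrophages these last genes were lower in KO HFD as well, by -2.29 and -1.44 on the log2 scale.

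*Thbs1* was read in every library, the KO HFD library included, at 136, 202 and 163 CPM over all cells. The assay reads the 3′ end of transcripts, so these counts do not check the deletion. In cycling cells *Thbs1* stood at 48.1 CPM in WT CD (35.1 to 64.3), 272 in WT HFD (242 to 304) and 57.1 in KO HFD (45.8 to 70.3), against 138, 200 and 168 in the other cells. The WT HFD value rested on few cells, since 3 of the 18 cells with a UMI held 59, 55 and 36 of its 304 UMIs. In cycling macrophages the gene was at 67.7, 731 and 84.0 CPM against 115, 332 and 83.1, and in cycling FAPs at 16.1, 87.8 and 45.8 against 201, 240 and 227. *Thbs1* was thus lower in cycling than in other FAPs of each library, from 1, 15 and 8 UMIs.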

How the data were processed

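Single-cell RNA-Seq of costal diaphragm mononuclear cells was analyzed in 3 libraries, each 1 group of 2 pooled mice. The authors mapped the reads to mm10 and deposited UMI counts per gene and barcode, whole numbers that had been filtered to cell barcodes with Cell Ranger (6.1.1 per the submitters' processing notes, 6.1.0 in the file headers). No deposited cell annotation was used, and 0 columns belonged to other samples. The members, gene lists and panels were chosen with earlier results of these data known.

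All 12275 barcodes and 32285 genes were kept. Doublets were scored with Scrublet in scanpy 1.11.5 (expected rate 0.06) and left in. Each library held a median of 7632.5, 8041.5 or 7554 UMIs per barcode in WT CD, WT HFD and KO HFD. UMIs were summed per lineage and library and scaled to CPM, and log2 ratios used a pseudocount of 1 count. A gene was called at 2-fold or more, with at least 50 CPM in the cycling or other cells of every library (100 between libraries), or, with libraries together, at least 10 UMIs observed or expected. Counting error was given as 95% intervals: Clopper-Pearson for a share, Newcombe for a difference, exact Poisson for CPM. No count model or p-value was used. Named genes were the markers, the lineage genes, list members with the highest level and the largest and smallest ratio, and the 10 genes per direction (5 between libraries) with the largest ratios. A few results that this rule or the lists would name are not reported here. Genes within lineages, such as *Mgl2* or *Igkc*, and other list members were chosen after their values were seen.

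Alternatives were the marker threshold, thinning, doublet and quality filters, lineage rules, TMM scaling (edgeR 4.0.16), the level filter, the pseudocount and leaving out a library. Comparisons over panel classes, over libraries together and between macrophages by panel were added after the data had been seen. The ratio and interval code was tested on simulated data. Python 3.11.15, numpy 2.4.6, scipy 1.17.1, pandas 2.3.3 and R 4.3.3 were used.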

Additional observations from a re-analysis of the deposited data

Results flagged for a closer look

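The difference in cycling share between WT HFD and WT CD ran in opposite directions by lineage, which was not tested because each group was 1 library. It was 4.59 percentage points for MuSCs, 2.71 for macrophages and 0.342 for FAPs, and -1.63 for B cells. For barcodes led by *Pecam1* it was -0.0921, and for those without a lineage UMI 1.09. The counting interval stayed positive for MuSCs (1.54 to 8.42) and spanned both signs for the others. The share of dividing B cells was 3.43% in WT CD and 1.81% in WT HFD.

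Among dendritic cells by panel the share was -12.8 points in WT HFD relative to WT CD and 18.1 points in KO HFD relative to WT HFD, again untested. These rest on 7, 4 and 13 cycling cells, and the counting intervals of the differences were -36.5 to 13.3 and -7.09 to 38.2 points.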

How the results depend on the processing

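No paired analysis was possible because each group was 1 library, and for the same reason no replicate could be left out. In the planned comparison between libraries no lineage had 20 cycling cells in 2 libraries, so it was not run. Of 747 values under alternatives, 683 were labelled the same as the reported value and 64 moved. The label did not measure closeness, and its rule differed by kind of value. A share was the same if it lay inside the counting interval of the reported share, which is wide for small counts. A count of genes had to stay within a set fold, and the ratio of a named gene had to keep its sign and stay at 2-fold or more. For 50 of the named genes, those with the largest ratios, no sign changed in 280 values under alternatives. Since they were picked by large ratios in these same data, that was nearly fixed in advance and says nothing of other genes. The difference in share of KO HFD from WT HFD, -0.145 points with an interval that included 0, changed sign when 2 of the 4 markers were required (0.00876) and when barcodes were thinned (0.147). That of macrophages, -0.782 points by lineage gene, was 0.506 by panel, both with intervals that included 0. With a threshold of 2 marker UMIs the cycling share was 1.55% in WT CD, 2.60% in WT HFD and 8.8% in WT HFD macrophages. Thinned to 3000 UMIs, without barcodes under that depth, it was 0.814%, 1.16% and 1.31% in WT CD, WT HFD and KO HFD. It was then 3.06% in WT HFD macrophages and 0.426% in KO HFD cells led by *Pecam1*. With at least 2 UMIs of the lineage gene, 0 of 135 WT CD MuSCs and 0 of 255 KO HFD *Pecam1* cells were cycling, and by panel 0 of 259 KO HFD endothelial cells and 0 of 88 KO HFD B cells. The thinned dendritic panel gave 13 of 77 with the class from all UMIs and 5 of 22 with the class from thinned UMIs. For WT HFD macrophages TMM scaling gave 113 lower genes, a minimum of 10 UMIs in place of the CPM filter 629 higher and 1323 lower, and a threshold of 5 marker UMIs 335 and 138. For cells matched by panel class TMM gave 36 lower genes and the minimum of 10 UMIs 472 higher and 85 lower. For macrophages by panel between KO HFD and WT HFD that minimum gave 485 higher and 354 lower. TMM moved the log2 ratios down by 0.15 in WT HFD macrophages, by 0.17, 0.08 and 0.12 in cells matched by class, and within lineages by 0.18 in FAPs, 0.23 in MuSCs, 0.11 in macrophages, 0.35 in B cells and 0.20 in dendritic cells. Without *Pax7*, the quiescence genes of MuSCs at least 2-fold lower numbered 2, but 4 with TMM and 0 with a pseudocount of 5 counts (with it 3, 5 and 1). The causes of these shifts were not tested beyond the settings' own construction. Depth limits what the shares show, since the rule needs 3 UMIs and cycling cells were deeper than others.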

Other observations

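The 4 genes of the rule act late in the cycle, so barcodes in early S phase can lie below it. Among the 12080 barcodes outside the rule, 426 (3.53%) held at least 8.5 UMIs of the replication and nucleotide genes, the lower quartile of the cycling cells, and 369 of them had no marker UMI. They numbered 131 in WT CD (3.21% of its barcodes outside the rule), 124 in WT HFD (3.35%) and 171 in KO HFD (3.98%). By panel 210 of the 426 were FAPs, 83 macrophages, 27 B cells and 25 MuSCs. Of all barcodes, the panels classed 54.9% as FAPs, 8.76% as macrophages, 4.73% as B cells and 9.52% as MuSCs. These barcodes were deep, with a median of 14419.5 UMIs, and resting cells also express these genes, so the count is an upper value for missed S-phase cells at this cutoff.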
